A study of Fukomys damarensis and Heterocephalus glaber and Mus musculus with 160 samples.

Results

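The form of promoter-associated chromatin in liver was compared across 4 rodents through the peak lists of H3K4me3, histone H3 trimethylated on lysine 4. These were the 14 lists whose titles name liver and H3K4me3, out of 116 peak lists and 160 samples in the series. The series is a chromatin immunoprecipitation sequencing (ChIP-seq) survey of histone marks and transcription factors in liver and heart of mouse, guinea pig and 2 African mole-rats, the naked and the Damaraland species. Each list came from a different animal, and all 14 animals were wild-type adult males.

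The naked mole-rat group held 5 animals, NMR30 of 13 months, NMR31 of 14 months, NMR35 of 15 months, and NMR32 and NMR34 of 17 months. The Damaraland mole-rat group held DMR1 and DMR4, for which the labels give an estimated age of 48 months. The guinea pig group held GuineaPig7, GuineaPig8 and GuineaPig9, each of 2.3 months. The mouse group held the C57BL/6J animals 85920, 85921, 85923 and 85924, each of 2 months. Species, age and genome assembly changed together. The library numbers in the titles also lay apart between the mole-rats and the 2 other species. The parts of all these in any difference between species cannot be told apart. The material was whole liver perfused with buffered saline, a mixture of hepatocytes and other liver cells. The identity of the tissue could not be checked against marker genes, because no gene annotation of these assemblies was used here.

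H3K4me3 is written by the SET1 and MLL methyltransferase complexes and is concentrated on the nucleosomes that flank transcription start sites, around a stretch of DNA with few nucleosomes. H3K27ac, acetylation of lysine 27, marks active promoters and enhancers, and H3K4me1, the monomethylated form, marks enhancers and the outer shoulders of promoters. In many tissues the widest H3K4me3 domains are known to lie over genes that define the cell type.

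Each peak had a start, an end, a summit (the base of highest signal), and the authors' own fold enrichment over background, p and q. The lists differed in how much they admitted, so peak numbers were not compared between species. They held 27591 to 253457 peaks in naked mole-rats, 28820 and 35216 in Damaraland mole-rats, 14782 to 16530 in guinea pigs and 17431 to 19301 in mice. NMR30 stood apart with 253457 peaks, of which 221497 had exactly the same width of 285 bases. Every list had such a smallest width, which was 133 to 200 bases in 6 of the 7 mole-rat lists and 267 to 297 bases in NMR30, the guinea pigs and the mice. How it was set is not stated. If it follows an estimate made by the peak caller for each library, it bears on the widths and summit offsets below, and this was not tested. Peaks at the smallest width made up 87.4% of the NMR30 list, 38.7% of NMR32, 19.8% of NMR35 and 18.5% of DMR1, and 1.32% to 5.17% of the other 10 lists. Each measure was therefore also taken over the 10000 peaks of lowest p in each list (the top peaks), which held peaks at the smallest width only in NMR30 (0.14%). Read depth was not given, and the 95% Wilson interval of a percentage over a whole list was within 0.98 points on either side, which covers counting error only.

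Over the full lists, liver H3K4me3 peaks were narrowest in the mole-rats, wider in the guinea pig and widest in the mouse. The median width was 285, 595, 239, 666 and 380 bases in NMR30, NMR31, NMR32, NMR34 and NMR35. It was 339 bases in DMR1 and 726 bases in DMR4. It was 1017, 943 and 886 bases in the guinea pigs and 1150, 1239, 1132 and 1231 bases in the mice. The mole-rat values overlapped each other and lay below every guinea pig, and every guinea pig lay below every mouse. As mean ± SD of the libraries this was 433 ± 189 bases in naked mole-rats (n = 5), 532.5 ± 274 bases in Damaraland mole-rats (n = 2), 949 ± 65.7 bases in guinea pigs (n = 3) and 1188 ± 54.9 bases in mice (n = 4). Species accounted for 74.2% of the variance of log2 median width among the 14 libraries (exact permutation test over 2522520 assignments, adjusted p = 0.00556, Benjamini-Hochberg over 4 measures).

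**Figure D1:**
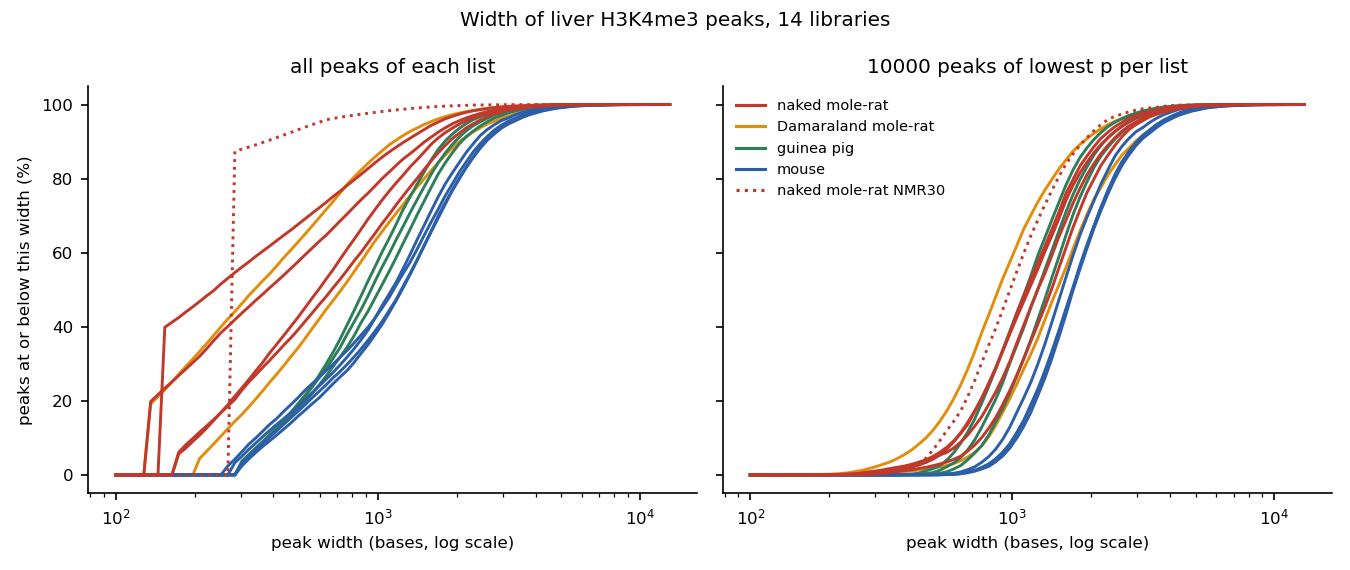
Cumulative percentage of liver H3K4me3 peaks (y axis) at or below a width in bases (x axis, log scale), 1 line per library, for all peaks (left) and for the 10000 peaks of lowest p (right). On the left the mole-rat curves start earliest, with the step of NMR30 at its smallest width of 285 bases, and on the right the 4 mouse curves lie farthest right beside DMR4.

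With equal numbers of top peaks the lists drew together, and the mouse alone kept the widest peaks. Equal numbers did not mean equal strength. The lowest −log10 p among top peaks was 94.2 to 127 in mice and 22.2 to 40.3 in guinea pigs. It was 24.7 to 185 in naked mole-rats, and 42.2 and 130 in DMR1 and DMR4. The median width of the top peaks was 981, 1156.5, 1131.5, 1410 and 1248 bases in the naked mole-rats in the same order, 886 and 1478 bases in DMR1 and DMR4, 1369, 1249.5 and 1127 bases in the guinea pigs, and 1702, 1690, 1549 and 1708 bases in the mice. Guinea pig and naked mole-rat values now overlapped, at 1249 ± 121 and 1185 ± 158 bases, while every mouse stayed above all other libraries. DMR1 was the narrowest of the 14 and DMR4 the widest outside the mouse, so that the 2 Damaraland mole-rats spanned the range of the other mole-rats and the guinea pigs. Species accounted for 59.0% of the variance (exact permutation, adjusted p = 0.0282).

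Within the 10000 top peaks, the mice stayed above the naked mole-rats and guinea pigs along the ranks. Among the 1000 peaks of lowest p the median width was 2082 to 2296 bases in mice, 1620 to 1986 bases in guinea pigs, 1497 to 1930 bases in naked mole-rats, and 1292 and 2276 bases in DMR1 and DMR4. At ranks 7501 to 10000 it was 1265 to 1384 bases in mice, 791 to 1010 bases in guinea pigs, 700.5 to 1073 bases in naked mole-rats, and 677 and 1075 bases in the Damaraland mole-rats. Width thus fell with rank in all 14 lists. Naked mole-rats and guinea pigs overlapped in both bands, and DMR4 lay above mice 85920 and 85923 in the first and above every guinea pig in both. Below the top peaks, at ranks 10001 to 14000, NMR34 (871 bases) and DMR4 (870 bases) lay above mice 85921 (853.5 bases) and 85923 (783 bases).

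Peaks of the same fold were also narrower in the mole-rats, below a fold of 80. Among peaks with a fold of 20 to 40, the median width was 1264 to 1365 bases in mice and 1202 to 1285 bases in guinea pigs, which overlapped. It was 704 to 832 bases in 4 naked mole-rats, 1000 bases in NMR30, and 808 and 915 bases in the Damaraland mole-rats, all below the guinea pigs and mice. Among peaks with a fold of 40 to 80 the mice had 1477 to 1629 bases, the guinea pigs 1524 to 1586 bases and the mole-rats 986 to 1325 bases, with NMR30 again the widest mole-rat. At a fold of 80 or more the mole-rats had 1380 to 1802.5 bases and the mice 1796 to 1989 bases. There DMR4 lay above mouse 85923. Within a list, fold and width rose together, with a Spearman correlation across peaks of 0.76 to 0.89 in 13 lists and 0.48 in NMR30. Peaks of a list share depth and neighbourhood, so this is a description of each list.

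Wide peaks, taken here as 2000 bases or more, were most frequent in the mouse. They made up 19.4%, 21.3%, 16.6% and 21.03% of the peaks of mice 85920, 85921, 85923 and 85924. They made up 11.6%, 9.47% and 6.99% in guinea pigs, 2.44% and 10.7% in DMR1 and DMR4, and 0.306%, 5.76%, 2.81%, 8.28% and 4.69% in NMR30, NMR31, NMR32, NMR34 and NMR35. The mice overlapped no other library, and species accounted for 85.3% of the variance (exact permutation, adjusted p = 0.000446). Wide peaks held 35.6% to 42.9% of all H3K4me3-covered bases in mice and 17.9% to 26.7% in guinea pigs. They held 12.8% and 31.7% in DMR1 and DMR4, and 2.36% to 25.1% in naked mole-rats, which overlapped the guinea pigs. The covered total was 22.6 to 25.6 Mb in mice, 15.2 to 19.3 Mb in guinea pigs, 18.7 and 28.8 Mb in DMR1 and DMR4, and 22.0 to 27.2 Mb in naked mole-rats other than NMR30, which covered 84.7 Mb. The guinea pigs thus covered less than any mouse. Among top peaks the wide share was 27.5% to 35.4% in mice, 10.3% to 18.5% in guinea pigs, 7.7% to 21.5% in naked mole-rats and 8.23% and 27.2% in DMR1 and DMR4.

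Joining close neighbours brought most mole-rat lists nearer to the guinea pig. When neighbouring peaks no more than 1000 bases apart were joined into a single region, the median width rose to 1139 bases in NMR31, 1223 bases in NMR34, 829 bases in NMR35, 772 bases in DMR1 and 1368 bases in DMR4. It rose less in mice, to 1353 to 1437 bases, and in guinea pigs, to 1113 to 1259 bases. NMR30 stayed at 285 bases and NMR32 at 237 bases, the 2 lists with the largest shares at their smallest width. NMR31, NMR34 and DMR4 then lay within or above the guinea pig range. After joining, species accounted for 41.3% of the variance of median width and 47.0% of that of the wide share, and neither passed (exact permutation, adjusted p = 0.0953 for both).

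**Figure D2:**
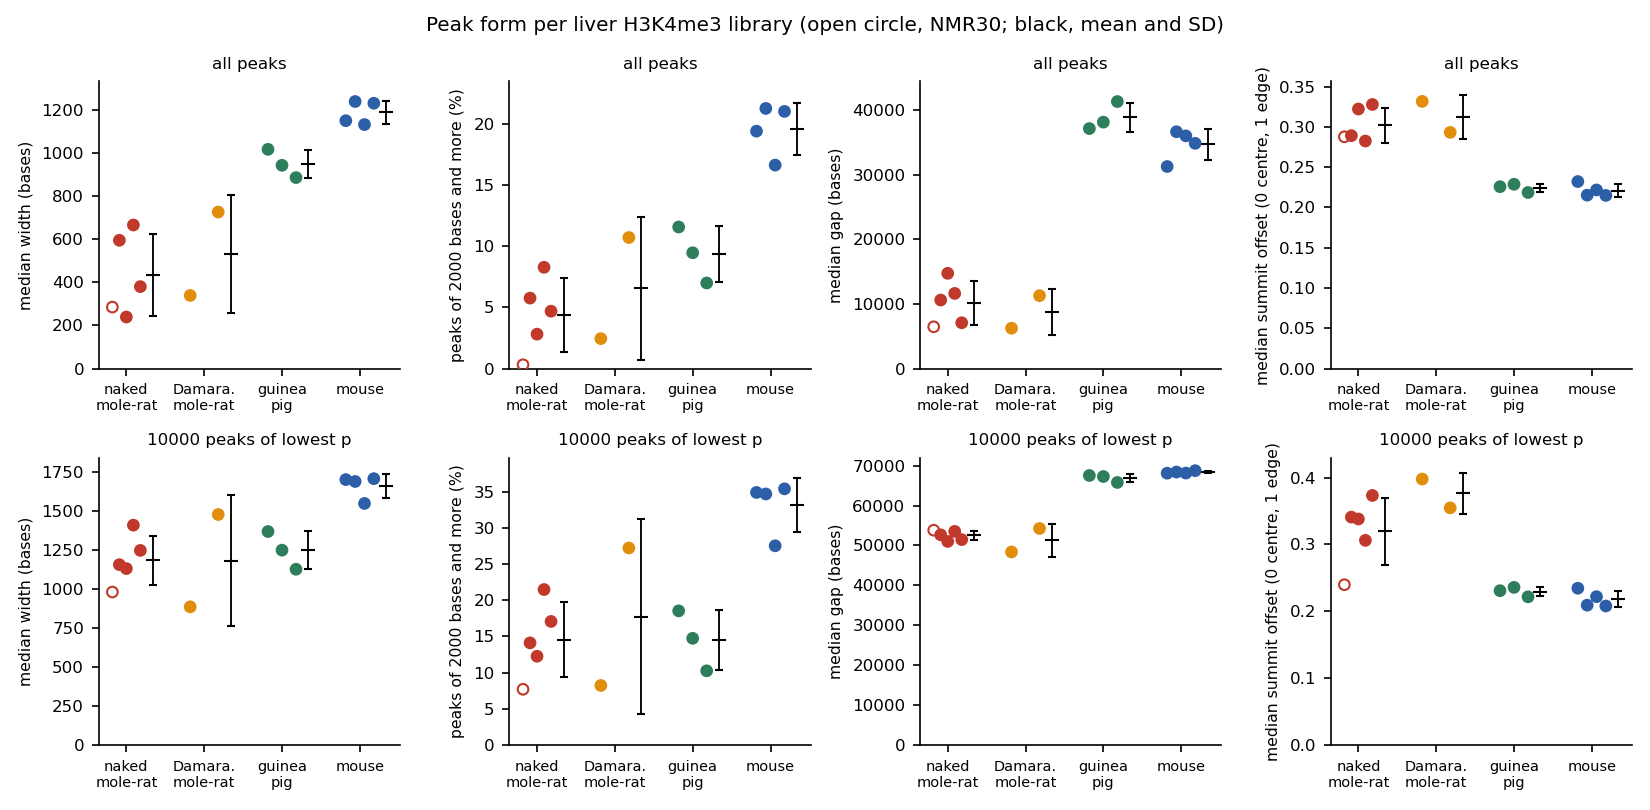
Median width, percentage of peaks of 2000 bases and more, median gap to the next peak and median summit offset (y axes) for each liver H3K4me3 library by species (x axis), over all peaks (top row) and over the 10000 peaks of lowest p (bottom row). Points are libraries, the open circle is NMR30, and the black mark and bar are the mean and SD. The mouse points are highest for the width of top peaks, and the gaps of top peaks fall into a lower pair of species and a higher pair.

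Neighbouring H3K4me3 peaks lay closer together in the mole-rats. A gap was the distance from the end of a top peak to the start of the next on the same scaffold. The median gap was 53831, 52674, 51016.5, 53538 and 51476 bases in the naked mole-rats and 48378 and 54265.5 bases in DMR1 and DMR4. It was 67544, 67289 and 65798 bases in the guinea pigs and 68115, 68403.5, 68145 and 68750 bases in the mice. All 7 mole-rat libraries lay below all 7 of the other species, and NMR30 lay within the mole-rat range. Species accounted for 96.3% of the variance of the log2 median gap (exact permutation, adjusted p = 0.000446). The naked mole-rat to mouse ratio of the geometric means was 0.768, and the guinea pig to mouse ratio was 0.978.

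The assemblies differed in a way that bears on long gaps. The top peaks fell on 1783 to 1841 scaffolds in naked mole-rats, 799 and 824 in Damaraland mole-rats, 277 to 284 in guinea pigs and 26 or 27 in mice, and a gap cannot cross a scaffold end. The longest 10% of gaps began at 297534 to 318052 bases in naked mole-rats and at 569861 to 572573 bases in mice. On scaffolds of at least 1 Mb alone, species accounted for 84.9% of the variance (exact permutation, adjusted p = 0.00221). For this, the same number of top peaks was taken anew from these scaffolds. They held 66.6% to 67.2% of the original top peaks in naked mole-rats and 99.96% to 99.97% in mice. More weaker peaks were thus drawn in for naked mole-rats, which can by itself shorten gaps. This test therefore cannot isolate scaffold length, and the part of scaffold length in the median gap was not tested.

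Short gaps separated the species as well. Among top peaks, gaps under 1000 bases made up 11.7%, 12.05%, 13.02%, 10.3% and 12.9% of the gaps in the naked mole-rats and 17.5% and 11.9% in DMR1 and DMR4. They made up 4.91%, 5.98% and 6.51% in guinea pigs and 2.59%, 1.63%, 2.34% and 1.46% in mice. The 3 ranges, of mole-rats, guinea pigs and mice, did not overlap, and the 2 mole-rat species did overlap each other. The share is taken over gaps within scaffolds, which numbered 8159 to 8217 in naked mole-rats and 9973 or 9974 in mice, and the part of scaffold ends in it was not tested. Over all peaks the share was 30.03% to 41.5% in 6 mole-rats, 15.2% to 16.6% in guinea pigs and 12.1% to 16.8% in mice, which overlapped, and 11.95% in NMR30, the lowest of the 14. For the share among top peaks, species accounted for 93.6% of the variance (exact permutation, p = 1.59e-06, adjusted p = 6.34e-06), a summary chosen after the data were seen. Of the gaps under 1000 bases between top peaks, the median length was 246 to 296 bases in mole-rats, 202 to 227 bases in guinea pigs and 144 to 186.5 bases in mice. The whole stretch from the outer edge of the first peak to that of the second had a median of 1908 to 2794 bases in mole-rats, against 2195 to 2557 bases in guinea pigs and 2731 to 3215 bases in mice.

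Many of the same short gaps recurred between animals, to a degree that varied between pairs. For a short gap of an animal, the gap was counted as recurring when another animal of the species also had peaks on both flanks and no peak in the middle of the gap. This held for a mean of 75.6% of the gaps over 20 ordered pairs of naked mole-rats, and for 82.3% over the 12 pairs without NMR30. It held for 72.6% in guinea pigs (6 pairs) and 62.8% in mice (12 pairs). Single pairs ran from 49.9% to 96.8% in naked mole-rats, 54.2% to 88.7% in guinea pigs and 34.8% to 84.9% in mice. A peak of the other animal covered the middle of the gap in a mean of 23.6%, 27.2% and 37.2% of cases in the same order. Of the DMR4 gaps 98.6% recurred in DMR1, but of the more numerous DMR1 gaps 45.5% recurred in DMR4, and a peak of DMR4 covered the other 54.5%.

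H3K27ac of the same animal covered these gaps less often than their flanks. An H3K27ac peak covered 95.7% to 100% of the summits flanking short gaps in all 14 animals. It covered the middle of the gap in 25.4%, 7.89%, 14.6%, 2.95% and 10.1% of cases in the naked mole-rats, 26.99% and 3.93% in DMR1 and DMR4, 36.3%, 38.7% and 50.9% in guinea pigs, and 17.4%, 32.5%, 26.6% and 28.8% in mice. The guinea pigs were the highest, while mole-rats and mice overlapped. H3K4me1 covered the middle of the gap in 0.68% to 2.31% of cases in mole-rats, 4.58% to 10.1% in guinea pigs and 10.1% to 20.9% in mice. It covered the flanking summits in 4.16% to 9.04% of cases in mole-rats, 2.57% to 7.44% in guinea pigs, 11.1% to 13.8% in 3 mice and 53.4% in mouse 85924. H3K4me1 thus covered the gap less often than its flanks in all 7 mole-rats and more often in all 3 guinea pigs. The guinea pig differences were small, with 10.1% against 7.44%, 4.99% against 3.30% and 4.58% against 2.57%, and were not tested. Among mice, the gap was covered more often in 85921 (20.9% against 13.8%) and less often in the others. The mouse percentages rest on 146 to 258 gaps per library and have Wilson intervals of up to 7.27 points on either side.

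**Figure D3:**
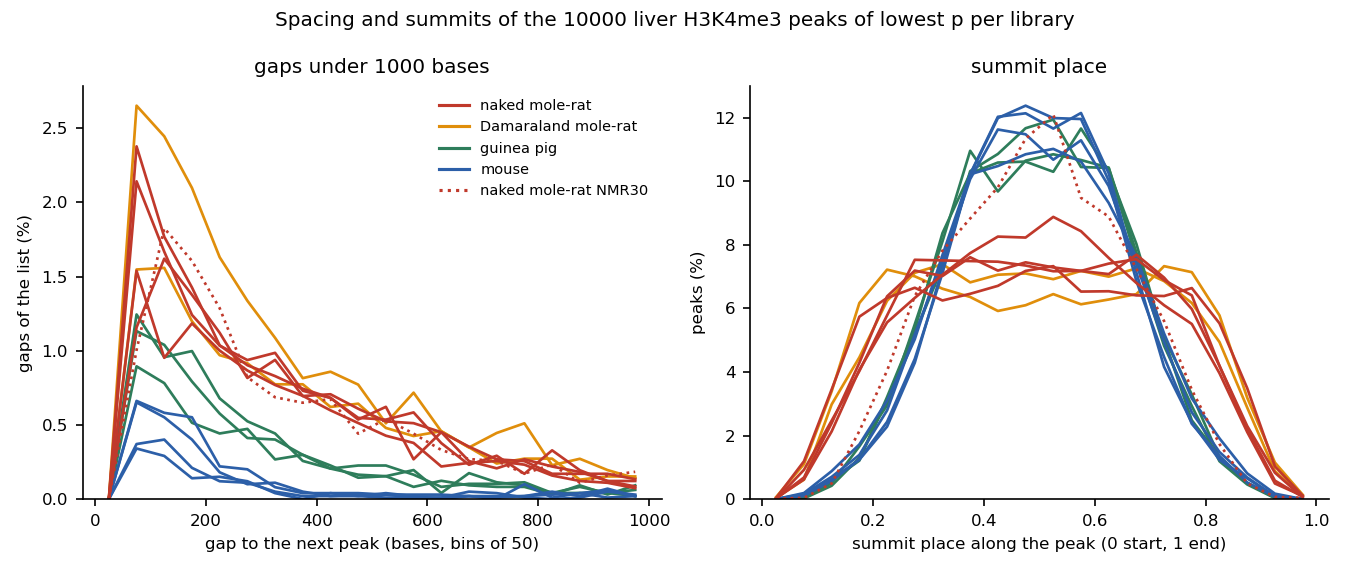
For the 10000 liver H3K4me3 peaks of lowest p in each library, the percentage of gaps (y axis) by gap length below 1000 bases in bins of 50 bases (left, x axis), and the percentage of peaks (y axis) by the place of the summit from the start of the peak at 0 to its end at 1 (right, x axis). Each line is a library. The mole-rat lines are highest at short gaps, and their summits form a flat plateau except in NMR30, whose summits peak at the centre like those of guinea pigs and mice.

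Summits lay farther from the peak centre in the mole-rats. The summit offset was the distance from the centre of the peak to its summit, scaled so that 0 is the centre and 1 the edge. Its median over all peaks was 0.288, 0.289, 0.322, 0.282 and 0.328 in NMR30, NMR31, NMR32, NMR34 and NMR35, and 0.332 and 0.293 in DMR1 and DMR4. It was 0.226, 0.229 and 0.219 in guinea pigs and 0.232, 0.215, 0.222 and 0.215 in mice. The mole-rats did not overlap the guinea pigs and mice, which overlapped each other. Species accounted for 89.5% of the variance (exact permutation, adjusted p = 0.000446). This placing of NMR30 rests on its peaks at the smallest width. Over peaks above the smallest width, an alternative chosen after the data were seen, the offset of NMR30 was 0.2005, the lowest of the 14, while the other 6 mole-rats had 0.277 to 0.319. Species then accounted for 64.7% of the variance (exact permutation, adjusted p = 0.0156), and the naked mole-rat to mouse difference was 0.0541 (exact permutation, unadjusted p = 0.0556).

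In the top peaks the separation grew for 6 mole-rats and shrank for NMR30. The offset of top peaks was 0.341, 0.338, 0.306 and 0.373 in NMR31, NMR32, NMR34 and NMR35 and 0.398 and 0.355 in DMR1 and DMR4. It was 0.240 in NMR30, just above the guinea pigs (0.222 to 0.236) and mice (0.208 to 0.235). The summit lay within the central 33.3% of the peak for 41.6% to 53.6% of the top peaks of those 6 mole-rats, 65.4% in NMR30 and 68.1% to 74.2% in guinea pigs and mice. NMR30 was also the mole-rat list whose smallest width (285 bases) lay among those of the guinea pigs and mice. The part of that width in the summit offset was not tested. Species accounted for 80.8% of the variance in the top peaks (exact permutation, adjusted p = 0.00365).

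Counted in bases rather than as a share of the width, the distance from summit to centre overlapped between mole-rats and mice. Its median over top peaks was 114 to 205.5 bases in naked mole-rats, 163 and 227 bases in Damaraland mole-rats, 117 to 150.5 bases in guinea pigs and 158.5 to 182 bases in mice. The guinea pigs lay below every mouse and every mole-rat except NMR30, which had 114 bases. The distance from the summit to the nearer edge was shorter in mole-rats, at 227 to 442 bases, than in mice, at 568 to 644 bases. The guinea pigs, at 398 to 472 bases, lay below the mice and overlapped the mole-rats. Summits of wide peaks were less central than those of the rest in all 14 libraries. The median offset of wide peaks was 0.260 to 0.276 in mice, 0.315 to 0.356 in guinea pigs, 0.336 to 0.424 in naked mole-rats, and 0.583 and 0.420 in DMR1 and DMR4.

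The 24 differences between pairs of species were tested in the same way, and none passed after adjustment over the 24 tests, while 10 had an unadjusted p under 0.05. The numbers of animals limit these tests. The smallest p they allow is 0.00794 for naked mole-rat against mouse, 0.0179 against guinea pig and 0.0476 against Damaraland mole-rat, 0.0286 for guinea pig against mouse, 0.0667 for Damaraland mole-rat against mouse and 0.1 against guinea pig. Naked mole-rat against mouse was at that limit for the wide share, with a difference of −15.2 percentage points, for the gap, with −0.38 on the log2 scale, and for the summit offset, with 0.0809 (exact permutation, adjusted p = 0.0635 for each). For median width it was −1.57 on the log2 scale, a ratio of 0.337, with an adjusted p of 0.0714 by the same exact permutation test. Over peaks with a −log10 q of at least 4, these 4 differences between naked mole-rat and mouse passed (exact permutation, adjusted p = 0.0476 for each). Only the test of median width became stronger there, by reaching its limit too. The wide share, gap and summit offset were already at that limit, and the gap rested on the same top peaks. Their adjusted p fell through the adjustment alone. Between the 2 mole-rat species all 4 measures overlapped, with log2 differences of −0.31 for median width and 0.03 for the gap (exact permutation, adjusted p = 0.596 for both).

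The fold of liver H3K4me3 peaks is the peak caller's value, relative to each library's own background, and is given as a description. Its median over all peaks was 27.3, 30.3, 29.4 and 28.6 in the mice, 20.6, 16.5 and 15.4 in the guinea pigs, 8.39 and 17.4 in DMR1 and DMR4, and 4.30, 19.1, 6.52, 18.2 and 10.3 in the naked mole-rats. The mouse lists were the highest and the most alike. Among top peaks the order changed. The median fold was 65.9 to 73.2 in mice, 59.9 to 92.9 in naked mole-rats other than NMR30, 25.9 in NMR30, 31.1 and 70.6 in DMR1 and DMR4, and 23.3 to 38.7 in guinea pigs. The guinea pig lists, with lower folds than 4 naked mole-rats, had top peaks of overlapping width. Weak peaks were most frequent in 4 mole-rat lists, where a fold under 5 was found for 66.1% of NMR30, 37.6% of NMR32, 25.4% of NMR35 and 24.5% of DMR1, against 9.38% to 14.8% in the other 10 lists, which include NMR31, NMR34 and DMR4 with 9.46%, 14.8% and 12.9%.

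Replicate mice shared the largest part of their top peaks. A top peak was shared when a top peak of another animal covered at least 50% of the shorter of the pair. Over ordered pairs of animals a mean of 97.1% of top peaks was shared in mice (range 96.1% to 97.9%, 12 pairs), 94.6% in guinea pigs (93.6% to 95.8%, 6 pairs), 90.2% in Damaraland mole-rats (86.3% and 94.1%, 2 pairs) and 89.2% in naked mole-rats (83.5% to 94.9%, 20 pairs). Without NMR30 the naked mole-rat mean was 92.0% (90.5% to 94.9%, 12 pairs). The ranges of mice and of the 3 other species did not overlap. No test was made, because pairs share libraries.

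Most top peaks that were not shared still had a weaker partner. Set against the full list of the other animal, 99.2% of the top peaks were found again in naked mole-rats (99.8% without NMR30), 99.8% in Damaraland mole-rats, 99.9% in guinea pigs and 99.995% in mice. Over whole lists sharing was lower, at 90.4% in mice, 89.96% in guinea pigs, 76.9% in Damaraland mole-rats and 55.2% in naked mole-rats (72.6% without NMR30). The median distance between the summits of paired top peaks was 20 to 24 bases in mice, 30 to 33 bases in guinea pigs, 46 bases in Damaraland mole-rats and 24 to 31 bases in naked mole-rats without NMR30, against 59 to 68 bases in pairs with NMR30. Widths of paired top peaks had Spearman correlations of 0.92 to 0.94 in mice, 0.87 to 0.88 in guinea pigs, 0.79 in Damaraland mole-rats and 0.74 to 0.89 in naked mole-rats, of which the pairs without NMR30 had 0.87 to 0.89. Folds were less alike, with correlations of 0.75 to 0.80, 0.78 to 0.84, 0.60 and 0.47 to 0.71 in the same order, so that guinea pigs and not mice had the highest mean correlation of folds (0.807 against 0.770).

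**Figure D4:**
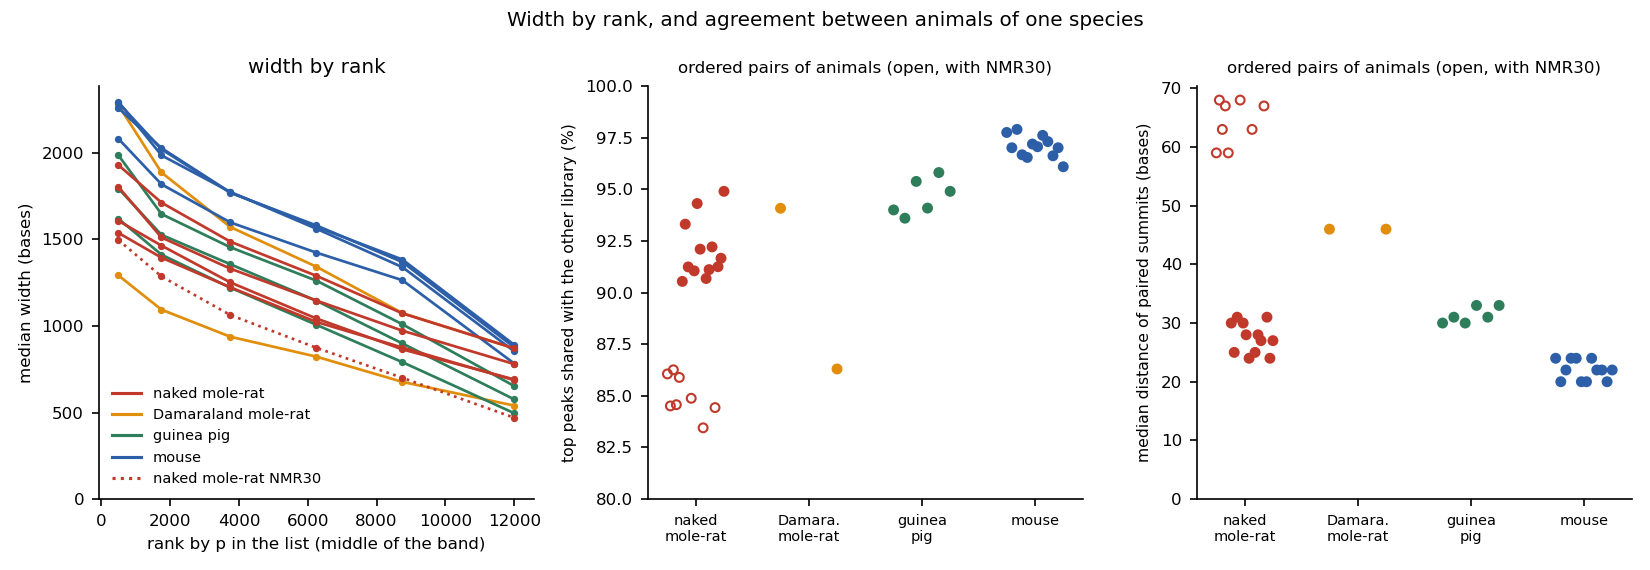
Median width in bases by rank of p within each list (left, 1 line per library), percentage of the 10000 top peaks shared with another animal (middle, axis from 80%), and median distance in bases between the summits of paired peaks (right), 1 point per ordered pair of animals, with open points for pairs that include NMR30. Mouse pairs share 96.1% to 97.9% of the top peaks, and pairs with NMR30 have the lowest sharing of top peaks and the longest summit distances.

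The peaks that recurred in every animal were the wide and high ones. Merged over the animals of a species, 14515 regions (73.6%) had a peak in all 4 mice, 12883 (75.5%) in all 3 guinea pigs, 20983 (60.3%) in both Damaraland mole-rats and 16087 (5.59%) in all 5 naked mole-rats. In the naked mole-rat 259257 regions were found in 1 animal only, and NMR30 alone supplied 230307 peaks of that kind. In the mouse lists, peaks of regions found in every animal had a median width of 1202 to 1397 bases, against 309 to 342 bases for peaks found in 1 animal. In the naked mole-rat lists the corresponding widths were 615 to 1070 bases and 136 to 285 bases, so peaks of 1 animal sat at or near the smallest width. An H3K27ac peak of the same animal touched 84.5% to 90.8% of the naked mole-rat peaks found in every animal, and 2.55%, 53.6%, 10.1%, 28.7% and 30.7% of the peaks found only in NMR30, NMR31, NMR32, NMR34 and NMR35. For peaks found in 1 animal it touched 26.6% and 67.1% in DMR1 and DMR4, 79.4% to 89.6% in guinea pigs and 44.9% to 79.6% in mice.

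The widest and the highest regions found in every animal of a species are given as examples. They were ranked by the mean, over animals, of the widest peak or the highest fold in the region. Their positions are on GRCm38 for mouse, HetGla_1.0 for naked mole-rat, DMR_v1.0 for Damaraland mole-rat and Cavpor3.0 for guinea pig, and no gene was assigned to them. The widest mouse region was 5:142812913-142824247, with peaks of 10592, 11124, 10719 and 10710 bases, which hardly differed between animals. The next, 2:164431734-164444778, had peaks of 11739, 9122, 6350 and 13004 bases, and mouse 85923 was the narrowest. Both had an H3K4me3 peak in all 6 mouse hearts and both other marks in all 4 livers.

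The widest naked mole-rat region was JH174185.1:11241-20036, with peaks of 5048, 7689, 8089, 7977 and 8734 bases in NMR30, NMR31, NMR32, NMR34 and NMR35, the widest peak of the list in each animal but NMR30. It had an H3K4me3 peak in 1 of 4 naked mole-rat hearts and an H3K27ac peak in all 5 livers. The next, JH173719.1:281342-289689, had peaks of 3252 bases in NMR30 and 7492 to 8348 bases in the other 4, and was found in all 4 hearts.

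The widest Damaraland mole-rat regions were KN122776.1:6186537-6195797, with 7225 and 9261 bases in DMR1 and DMR4, and KN123945.1:2043055-2054672, with 4661 and 11618 bases. The first was found in all 5 hearts and the second in 0 of 5. The widest guinea pig regions were DS562885.1:10846910-10856170, with 9261, 8632 and 8910 bases and found in all 3 hearts, and DS563100.1:221173-228441, with 7266, 5962 and 5531 bases and found in 0 of 3 hearts. Among these 8 widest regions, 2 were in no heart list of their species, 1 was in the list of 1 heart, and 5 were in every heart list.

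The regions of highest fold were narrower. In the mouse they were 5:121710511-121715623, with a fold of 268 ± 50.2 and a width of 4091 ± 552 bases (SD, n = 4), and 15:11994611-11996195, with a fold of 261 ± 134 and 1489 ± 68.7 bases. In the naked mole-rat they were JH168066.1:319442-321898, with a fold of 294 ± 127 and 1674 ± 259 bases (SD, n = 5), and JH166935.1:74961-76847, with 293 ± 141 and 1538 ± 396 bases. In the guinea pig they were DS562916.1:9075266-9077801, with 132 ± 34.1 and 2026 ± 656 bases (SD, n = 3), and DS563224.1:296605-298989, with 127 ± 17.3 and 2125 ± 313 bases. In the Damaraland mole-rat they were KN106143.1:1-1147 and KN110323.1:1-2431, both starting at the first base of their scaffold, with folds of 161 and 480 and of 78.0 and 418 in DMR1 and DMR4. All 8 regions of highest fold had an H3K4me3 peak in every heart of their species.

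Wide liver H3K4me3 peaks carried H3K27ac more often than narrow ones in every animal. Each list was ranked by width and the widest 20% were compared with the narrowest 20%, by the percentage of peaks that an H3K27ac peak of the same liver touched. Among the widest it was 99.1% to 99.5% in mice, 99.97% to 100% in guinea pigs, 99.5% and 99.3% in DMR1 and DMR4, 97.7% to 99.0% in 4 naked mole-rats and 32.6% in NMR30. Since 87.4% of the NMR30 peaks had the same width, its widest 20% included peaks at the smallest width, and its narrowest 20% was an arbitrary part of them, here and in the comparisons below. Among the narrowest it was 62.5% to 67.1% in mice, 89.2% to 94.96% in guinea pigs, 32.0% and 61.9% in Damaraland mole-rats, and 3.94%, 51.2%, 13.4%, 40.03% and 23.7% in the naked mole-rats. The mean difference was 40.2 ± 24.4 percentage points (SD, n = 14), above 0 in 14 of 14 libraries (exact sign-flip permutation test, adjusted p = 0.000122 over 3 tests, the smallest it can give). Without NMR30 it was 41.1 points (exact permutation, adjusted p = 0.000244). Among top peaks, where 99.8% of the widest in NMR30 touched H3K27ac, the difference was 5.74 points (exact permutation, adjusted p = 0.000122), since 86.6% to 99.8% of the narrowest top peaks also touched H3K27ac. A longer peak is touched more easily, and in the full lists fold differed along with width. The median fold was 3.86 to 5.64 in the narrowest 20% and 6.30 to 94.0 in the widest 20%. Taken at the summit alone, a measure chosen after the data were seen, the H3K27ac difference was above 0 in every full list. It ran from 6.29 points in GuineaPig9 to 85.3 points in NMR32.

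H3K4me1 touched wide peaks more often and yet covered less of them. An H3K4me1 peak of the same liver touched 90.7% to 94.4% of the widest peaks in mice, 73.2% to 92.5% in guinea pigs, 69.8% and 89.2% in Damaraland mole-rats, 73.4% to 88.0% in 4 naked mole-rats and 19.3% in NMR30. For the narrowest peaks the values were 62.9% to 72.4%, 53.1% to 74.1%, 30.7% and 57.3%, 18.5% to 51.2% and 7.07%. The mean difference was 29.8 ± 12.4 points, above 0 in 14 of 14 libraries (exact sign-flip permutation, adjusted p = 0.000122). With a required overlap of 50% of the shorter peak it was 10.1 points and did not pass (exact permutation, adjusted p = 0.0557). At that overlap it was −23.8, −20.0 and −13.9 points in GuineaPig7, GuineaPig8 and GuineaPig9. In every other library it was above 0, from 3.87 points in DMR1 to 34.4 points in NMR35.

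Measured by bases, H3K4me1 peaks covered 36.1% to 47.2% of the widest and 54.2% to 65.6% of the narrowest peaks in mice, and 13.5% to 27.8% against 32.2% to 55.0% in guinea pigs. The mean difference over the 14 libraries was −12.3 points (exact permutation, adjusted p = 0.00244), with NMR30, NMR32 and NMR35 on the other side. At the summit itself, H3K4me1 covered 2.67% to 13.8% of the widest peaks in 13 libraries and 43.4% in mouse 85924. The widest peaks had the lower value in 13 libraries, and NMR30 went the other way, with 6.75% against 5.00%. The corresponding mean difference was −29.7 points (exact permutation, adjusted p = 0.000244). These 2 measures were chosen after the data were seen. Over all top peaks H3K4me1 covered 3.75% to 16.6% of the summits in 13 libraries and 51.2% in mouse 85924, while H3K27ac covered 94.4% to 99.9%. Whether the H3K4me1 list of mouse 85924 is what its label says was not tested. Without this animal the difference in H3K4me1 contact was 30.7 points (exact permutation, adjusted p = 0.000244).

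Heart H3K4me3 gave the comparison with the other tissue, using regions with a peak in at least 2 hearts of the species. There were 6 hearts in mice, 3 in guinea pigs, 5 in Damaraland mole-rats and 4 in naked mole-rats, so this rule was not equally strict. Of the widest liver peaks 90.8% to 92.4% in mice, 87.8% to 88.2% in guinea pigs, 86.2% and 85.0% in Damaraland mole-rats, 86.9% to 89.0% in 4 naked mole-rats and 28.5% in NMR30 touched such a region. Of the narrowest, 53.7% to 66.7%, 72.0% to 81.5%, 22.8% and 43.9%, 5.94% to 47.0% and 1.55% did so. The mean difference was 39.99 ± 23.8 points, above 0 in 14 of 14 libraries (exact sign-flip permutation, adjusted p = 0.000122). The libraries of a species shared the same heart regions, so these differences are not independent, here and in the top peaks below. As for H3K27ac, a longer peak is touched more easily, and fold differed along with width.

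Within the top peaks the direction turned. There the widest 20% were found in heart less often than the narrowest 20% in all 14 libraries, with 88.8% to 91.9% against 97.4% to 98.8% in mice and 84.8% to 86.3% against 97.0% to 97.6% in guinea pigs. In DMR1 and DMR4 the values were 81.2% and 79.95% against 96.8% in both, and in the naked mole-rats 83.7% to 87.0% against 86.4% to 97.4%. The mean difference was −10.2 points (exact sign-flip permutation, adjusted p = 0.000122). The percentages for the 14 libraries had Wilson intervals within 1.80 points on either side in the full lists.

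**Figure D5:**
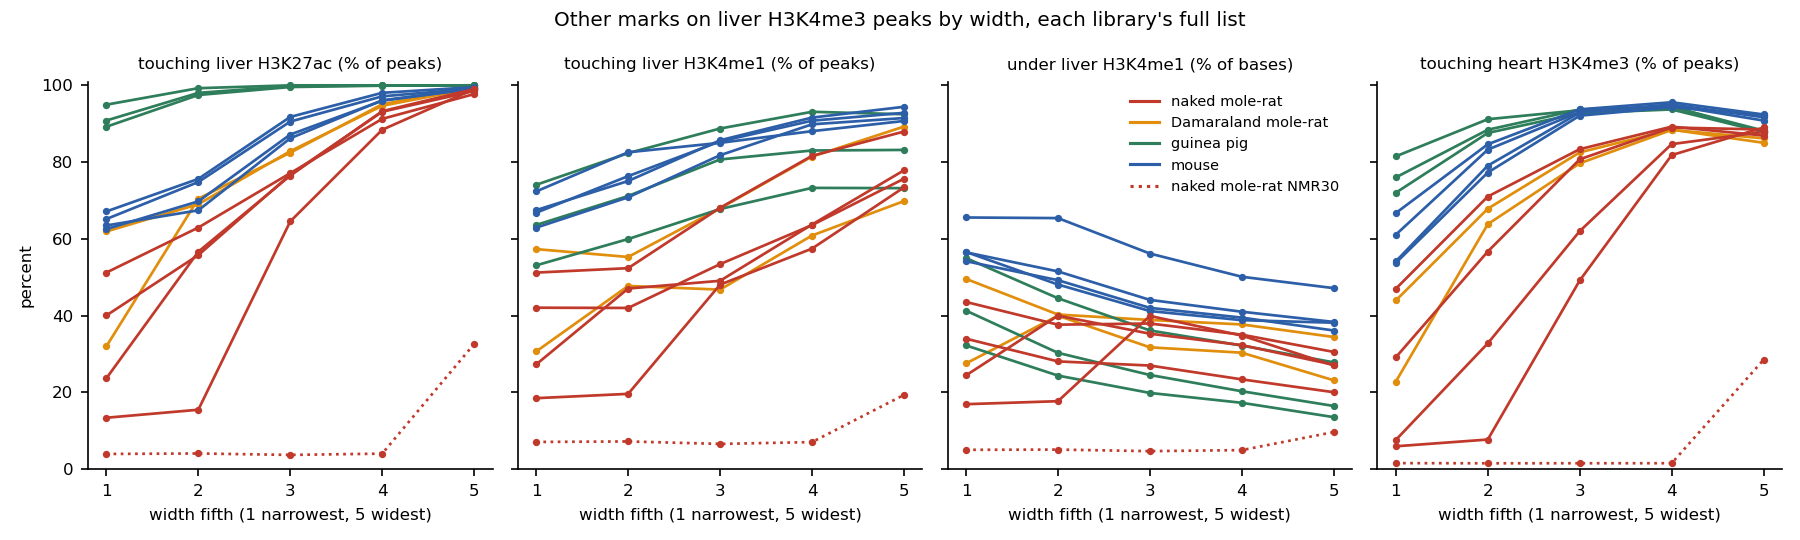
Percentage (y axes) of liver H3K4me3 peaks touching liver H3K27ac, touching liver H3K4me1, of their bases under liver H3K4me1, and of peaks touching heart H3K4me3, by width from the narrowest 20% of peaks (1) to the widest 20% (5) of each library's full list (x axes), 1 line per library. H3K27ac and H3K4me1 contact are higher for the widest than for the narrowest peaks in all 14 libraries, the bases under H3K4me1 fall in the mice and guinea pigs, and NMR30 stays near the bottom until its widest peaks.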

How the data were processed

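Chromatin was sheared to an average of 300 bases and precipitated with an H3K4me3 antibody, per the labels' protocols. The authors deposited 1 peak list per library. MACS2 is named in the submitters' processing notes, without a version, and the aligner is not given in the sources used here. Assemblies were read from the deposited file names. In each deposited list the authors give the fold enrichment (a ratio), −log10 p, −log10 q and the summit of each peak. The lowest −log10 q was 1.3, and how the smallest width was set is not stated, so its part in widths and summit offsets is unknown.

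Lists were read as deposited with Python 3.11.15, NumPy 2.4.6 and pandas 2.3.3. A library's value was its median or percentage over peaks, and libraries were the replicates. Species were compared by exact permutation of the library labels (between-species sum of squares, or the two-sided difference of means), with Benjamini-Hochberg adjustment and a threshold of 0.05. Wide and narrow peaks of a list were compared by an exact two-sided sign-flip test over the 14 libraries. The scripts were tested on simulated lists. The 60 lists used were those of liver H3K4me3, the liver H3K27ac and H3K4me1 of the same animals, and heart H3K4me3. The other lists and 4C were not used here. Example regions were, per species, the 2 widest and 2 of highest fold, by the mean over animals, among regions with a peak in every animal. The planned lists of marker genes were not analysed here. The members, measures and lists were chosen with earlier results of these data known. Alternatives were equal numbers of peaks, a stricter q, long scaffolds, libraries of the do prefix alone, joined peaks, other overlaps and leaving out each library. NMR30 and NMR31 carry the vl prefix in their library names and the other 12 libraries the do prefix. Within the do prefix, guinea pigs and mice had lower library numbers than the mole-rats, in separate blocks.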

Additional observations from a re-analysis of the deposited data

Results flagged for a closer look

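Mouse 85923 had narrower top peaks than the other mice. Their median width was 1549 bases, against 1690 to 1708 bases in the other 3, and 27.52% of them reached 2000 bases, against 34.7% to 35.4%. The gap to the nearest mouse took up most of the range in both cases. Its value still lay above every library of the other species.

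Mouse 85924 differed in how H3K4me1 lay over H3K4me3 summits. In this animal 51.23% of the top H3K4me3 summits fell inside an H3K4me1 peak of the same liver, against 13.6% to 16.6% in the other 3 mice. Its H3K4me3 list was within the range of the other mice for median width over all peaks (1231 bases). The median gap of its top peaks was the longest of the 4 mice (68750 bases against 68115 to 68403.5), and its median summit offset was the lowest (0.2149 against 0.2153 to 0.2322). Whether its H3K4me1 list is what the label says, as opposed to mixed or mislabelled material, was not tested, and the list enters every H3K4me1 value given for mice.

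Across 36 checks of this kind, on groups of 4 mice and 5 naked mole-rats, 3 values were marked, and chance marks about 1 in 20 groups.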

How the results depend on the processing

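No paired analysis was possible because the species share no animals, and the names shared between groups join different marks and tissues of the same animal, not the lists compared here. The 39 results were recomputed under 528 alternatives, of which 490 kept the direction and the side of the threshold, or stayed within the replicate spread. The 24 pair differences, none of which passed at first, counted here when they kept their sign and again did not pass. Tests of Damaraland mole-rat against mouse or guinea pig could not pass at all, so this count is a weak measure of stability. The differences between naked and Damaraland mole-rats, none of which passed, changed sign most easily. With 10000 top peaks the median width difference of naked minus Damaraland mole-rat was 0.0406 (log2), and without peaks at the smallest width, an alternative chosen after seeing the data, it was 0.00916. With 10000 top peaks taken anew from scaffolds of at least 1 Mb, the gap difference of that pair was −0.19. Leaving out DMR1 or DMR4 gave ranges of −0.86 to 0.24 for width, −6.35 to 1.92 points for the wide share, −0.0478 to 0.118 for the gap and −0.0298 to 0.00868 for the summit offset.

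For the wide share of Damaraland mole-rat minus guinea pig the range was −6.9 to 1.37 points, with 3.22 points in the top peaks and 5.93 points after joining. Naked mole-rat minus guinea pig became 0.0173 points in the top peaks. Guinea pig minus mouse became 0.16 for the gap over all peaks. At a −log10 q of at least 4 naked mole-rat minus mouse passed, at −1.27 for width, −14.9 points for the wide share, −0.38 for the gap and 0.0768 for the summit offset. Of these only the width test became stronger, and the others passed through the adjustment. Joining lowered the species share to 41.3% for width and 47.0% for the wide share, which no longer passed.

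The cause of these changes was not tested. The mean median fold of top peaks was 69.0 in naked mole-rats, 50.9 in Damaraland mole-rats, 29.6 in guinea pigs and 69.0 in mice, and 30.6 in mice at the stricter q. Sharing at 90% overlap was 83.9%, 91.5% and 95.3% in naked mole-rats, guinea pigs and mice. With 5000 top peaks it was 82.0%, 83.3%, 89.5% and 92.6% in naked mole-rats, Damaraland mole-rats, guinea pigs and mice, and over all peaks 55.2%, 76.9%, 89.96% and 90.4%. It could not be recomputed without DMR1 or DMR4. The H3K4me1 difference was 10.1 points at 50% overlap (exact permutation, adjusted p = 0.0557), −12.3 points by bases and −29.7 points at the summit, and the heart difference −10.2 points in top peaks. At 50% overlap the H3K4me1 difference was below 0 in the guinea pigs only. Leaving out any single library changed no call between species or between wide and narrow peaks, though no pair of species had passed to begin with.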
